A study of Mus musculus with 12 samples.

Results

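The genes of 10 secreted or surface-bound messengers of cytotoxic T lymphocytes (CTL) were followed: Ifng, which encodes interferon gamma (IFN-γ), 5 ligands of the tumor necrosis factor (TNF) family (Tnf, Lta, Ltb, Fasl and Tnfsf10) and 4 interleukins (Il10, Il24, Il16 and Il2). They are taken as a list of names, set up with earlier results of these data known, and are 10 of 18193 genes that have an array probe set of their own. A probe set is the group of short probes that reads 1 transcript. Of the probe sets naming it alone, the one with the highest mean over the 12 arrays stood for each gene, and its other probe sets are given where they exist.

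The 12 Affymetrix mouse arrays held RNA of CTL from C57BL/6 mice, 3 arrays per group. In the first experiment, Cre control CTL carried the TamoxCre allele, C57BL/6GT(ROSA)26tm9(creEsr1)Arte, and PDK1 null CTL carried the same allele together with PDK1fl/fl. Both received 0.6 μM 4OHT, which activates Cre, for the last 72 hr. The control thus shared the Cre and the drug and lacked the floxed alleles. The genotypes came from different mice, matched in the study for age and sex, and other DNA differences between them were not tested. Cre in this line is driven from the ROSA26 locus and is not limited to T cells. In the second experiment, cells of 3 wild-type mice were each split into a culture in IL-2 alone and a culture in IL-2 plus 1 μM of the Akt inhibitor AktI-1/2 (AktI) for the last 48 hr. Cultures with the same replicate number were taken as those of the same mouse. In all 4 groups spleen cells (splenocytes in the paper's account) had been activated for 48 hr with CD3 antibody (2C11, 0.5 μg/ml). They were then cultured for 5 days in 20 ng/ml IL-2. For the wild-type cultures the paper also names IL-2 during the 48 hr of activation. The age of the mice is not given in the sources used here. The experiments asked which transcripts of CTL depend on the kinase PDK1 and which on Akt, a kinase that PDK1 activates.

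CTL kill infected or malignant cells by contact and also shape the immune response through what they release. IFN-γ activates macrophages and raises antigen presentation, TNF and lymphotoxins signal inflammation and the building of lymphoid tissue, and FASL and TRAIL, the product of Tnfsf10, trigger death receptors on the target cell. IL-10 restrains inflammation, IL-24 belongs to the same cytokine family, and IL-16 is made as a precursor that is cleaved to a chemoattractant which binds CD4. Akt phosphorylates Foxo transcription factors and so keeps them out of the nucleus.

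The region just before the transcription start is shown for 3 genes: Ltb, which was higher in both comparisons, Tnf, its direct neighbor, which passed in neither, and Ifng, which had the largest fall among the 10. Each line gives the 250 bases before the start, 5′ to 3′ on the strand of the gene, from RefSeq on build GRCm38.p6. These 4 motifs were searched on both strands: a Foxo site (GTAAACA), an AP-1 site (TGANTCA), a T-box core (TCACAC) and a TATA box (TATAAA). Motif matches are in capitals.
Ltb: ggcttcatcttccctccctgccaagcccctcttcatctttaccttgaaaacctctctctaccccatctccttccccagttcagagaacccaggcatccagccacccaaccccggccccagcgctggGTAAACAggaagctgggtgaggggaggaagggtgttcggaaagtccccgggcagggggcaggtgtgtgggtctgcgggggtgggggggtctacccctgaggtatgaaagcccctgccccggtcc
Tnf: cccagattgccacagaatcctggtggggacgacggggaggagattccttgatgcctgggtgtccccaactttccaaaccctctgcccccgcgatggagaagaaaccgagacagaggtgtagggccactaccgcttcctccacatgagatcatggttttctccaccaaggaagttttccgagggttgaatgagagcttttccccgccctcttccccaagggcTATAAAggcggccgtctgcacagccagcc
Ifng: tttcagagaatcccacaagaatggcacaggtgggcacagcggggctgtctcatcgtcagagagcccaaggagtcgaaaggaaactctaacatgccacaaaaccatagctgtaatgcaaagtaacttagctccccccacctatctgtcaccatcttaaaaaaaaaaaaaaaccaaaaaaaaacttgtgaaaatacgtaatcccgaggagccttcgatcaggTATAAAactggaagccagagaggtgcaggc
The windows are chr17:35194257-35194506 for Ltb on the plus strand, chr17:35202008-35202257 for Tnf on the minus strand and chr10:118440796-118441045 for Ifng on the plus strand. The capitals in Ltb are the Foxo site, 124 to 118 bases before the start, and 3.17% of 32851 mouse promoters of this length hold that motif. The capitals in Tnf and Ifng are TATA boxes, 29 to 24 and 30 to 25 bases before the start, a motif that 12.4% of promoters hold. Il2 held a TATA box 31 to 26 bases before the start. Lta held the letters TATAAA farther away, 167 to 162 bases before the start used here. That start lies inside the annotated gene, chr17:35203165-35205578, as does most of the window, chr17:35205352-35205601, with these letters. Of the 3 windows of Il16, 1 held a T-box core and an AP-1 site. All 3 lie inside the annotated gene, chr7:83642819-83746028, before starts within it. None of the 4 motifs was in the windows of Fasl and Tnfsf10. The promoter table had no entry for Il10 and Il24. A match describes letters in a window and does not show that a factor was bound.

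Signals were log2 values as deposited. The median of the arrays lay between 4.606 and 4.628 in the PDK1 experiment and between 5.102 and 5.141 in the Akt experiment, so the experiments were taken as normalized apart, and levels were compared only within an experiment. Arrays of 1 group correlated with r of 0.9958 to 0.9978 across probe sets. Background was set in each experiment at the 95th percentile of 80 probe sets for olfactory and vomeronasal receptors, which gave log2 signals of 4.45 and 4.99. The 7 measured markers of T cells and CTL were above background in all 4 groups, among them Cd3e, Cd8a and Gzmb, and the NK cell markers Ncr1 and Klra8 were below it in all 4 groups. Of 4 helper and regulatory T cell markers Cd4 (6.52 to 6.92 over the group means) and Zbtb7b (6.18 to 6.74) were above it in all 4 groups. Cd40lg was above it in PDK1 null CTL only and Foxp3 in no group. Of 5 B cell markers Cd79b, Pax5 and Cd22 were above it in all 4 groups, Cd79a in the Akt experiment only and Ms4a1 in none. The Pdpk1 signal was 8.96 to 9.03 in Cre control and 8.95 to 9.09 in PDK1 null CTL. Where its probe set lies relative to the floxed part was not known, so Pdpk1 mRNA gave no check of the label. A gene passed when limma gave an adjusted p under 0.05, by Benjamini-Hochberg over all 45037 probe sets tested, and the change was at least 1.5-fold.

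In PDK1 null CTL 2 of the 10 genes rose, Ltb and Il16, and none fell. The limma fit gave 2 rises and 1 fall at an unadjusted p under 0.05. The share of all genes at that unadjusted p was not counted. Unadjusted counts, here and for the lists below, thus have no share beside them. Over all genes 1.36% passed in this comparison, 1.01% as rises and 0.357% as falls. With AktI 5 of the 10 passed: Ltb rose, and Ifng, Il10, Il24 and Fasl fell. Over all genes 2.53% passed with AktI, 1.51% as rises and 1.03% as falls. The median log2 fold change of the 10 genes was 0.04 in PDK1 null CTL and -0.27 with AktI, beside -0.01 and -0.02 over all genes. The values of the groups did not overlap for 2 of the 10 genes in the PDK1 comparison, where 24.7% of all genes did not overlap, and for 7 of 10 in the AktI comparison, where 27.4% did not. Several of the 10, Ifng and Fasl among them, belong to the effector molecules that the study displayed from these same arrays. Such a choice makes the counts no independent evidence of a direction.

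**Figure D1:**
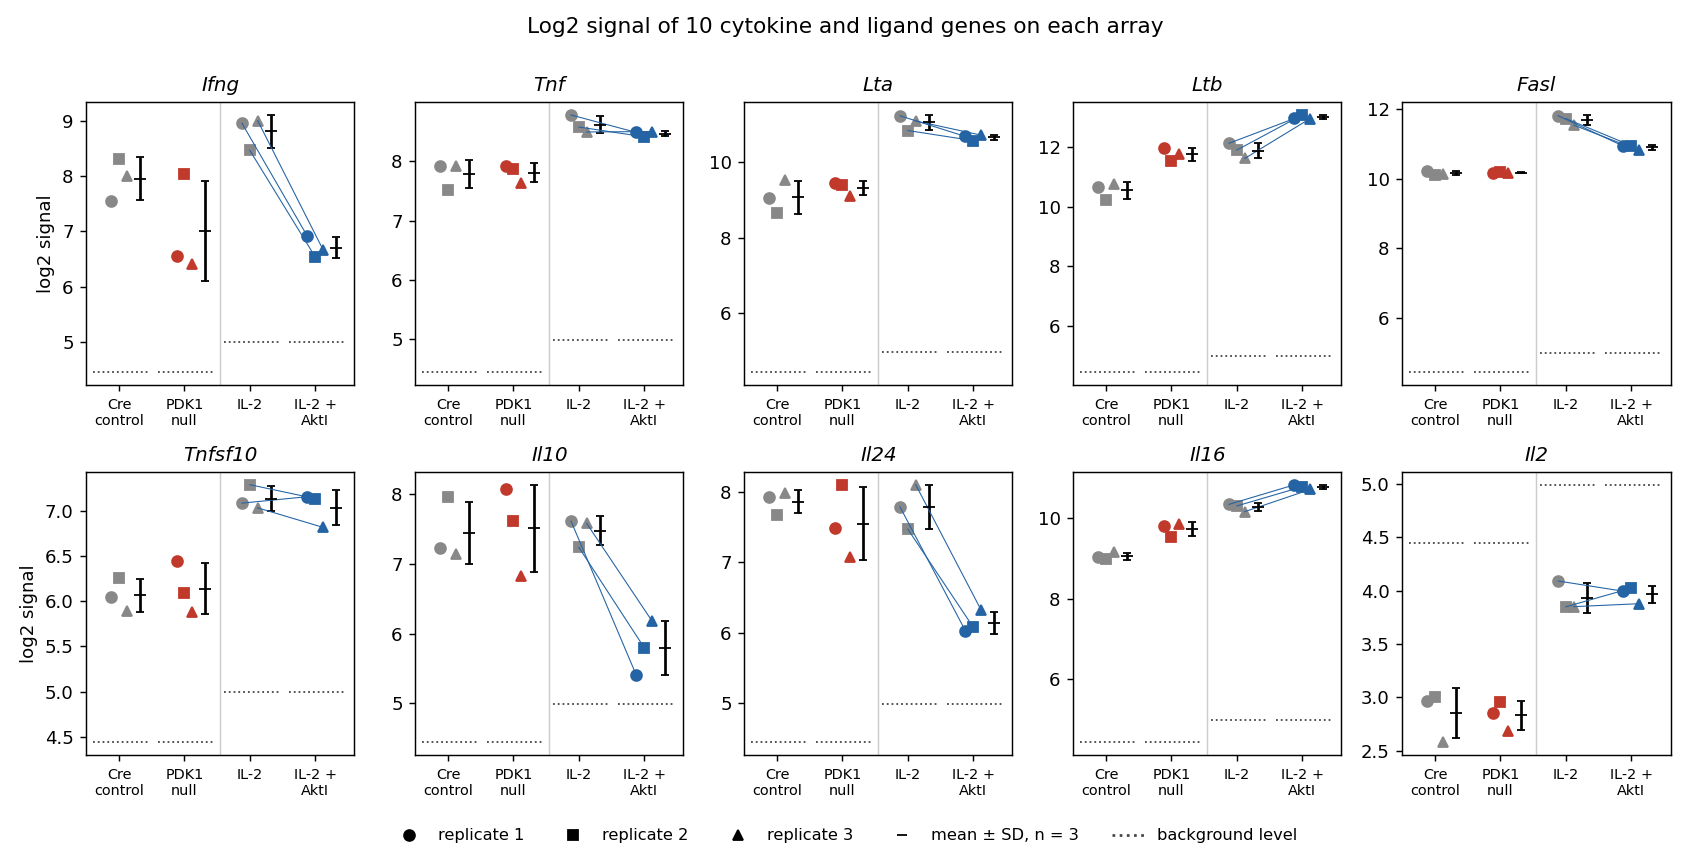
Log2 signal (y axis, own scale in each panel) of each gene on each of the 12 arrays by group (x axis). Symbols mark replicates, thin lines join the 2 cultures of a wild-type mouse, bars give mean ± SD of 3 arrays and dotted lines the background level of the experiment; Ifng, Il10, Il24 and Fasl sit lower in every AktI culture than in every culture in IL-2 alone, Ltb and Il16 sit higher in both treated groups, and Il2 lies below background throughout.

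Ifng fell with AktI by more than any other of the 10 genes. Its log2 signal was 8.96, 8.47 and 9.01 in the 3 cultures in IL-2 alone and 6.91, 6.54 and 6.67 in the cultures of the same mice with AktI. Every mouse showed the fall, with differences of -2.05, -1.93 and -2.34 on the log2 scale for mouse 1, 2 and 3, and the groups were far apart. The log2 fold change was -2.10 ± 0.152 (SE, n = 3 and 3), a 4.30-fold fall with a limma adjusted p of 0.000211, and it ranked 6 among all falls that passed with AktI. A bulk measurement cannot tell fewer expressing cells from less RNA per cell.

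In the PDK1 experiment Ifng was uneven. Cre control CTL had log2 signals of 7.54, 8.31 and 8.01, and PDK1 null CTL had 6.56, 8.04 and 6.41. Replicates 1 and 3 of PDK1 null CTL lay below every control, and replicate 2 lay among the controls. The log2 fold change was -0.95 ± 0.396 (SE, n = 3 and 3), which did not pass (limma adjusted p = 0.301). Without PDK1 null replicate 2 it was -1.47 and passed, with an adjusted p of 0.0149. The effect in PDK1 null CTL minus that of AktI was 1.15 (adjusted p = 0.419), so a difference between the comparisons was not shown for Ifng.

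Tnf, Lta and Ltb stand side by side on chromosome 17 (35194507 to 35205578) and encode ligands that share receptors: TNF and lymphotoxin α bind TNF receptors, and lymphotoxin β anchors lymphotoxin α on the cell surface in a complex that binds LTBR. Of the 3 genes Ltb alone passed a test. Ltb signals were 10.67, 10.23 and 10.76 in Cre control CTL and 11.96, 11.51 and 11.76 in PDK1 null CTL. They were 12.12, 11.89 and 11.61 in IL-2 alone and 12.95, 13.07 and 12.95 with AktI. No treated array overlapped its controls. Ltb rose 2.29-fold in PDK1 null CTL (log2 fold change 1.19 ± 0.156, limma adjusted p = 0.0115) and 2.17-fold with AktI (1.12 ± 0.12, adjusted p = 0.00145), in each of the 3 mice. The effects differed by 0.08 ± 0.215 on the log2 scale (adjusted p = 0.945). Without PDK1 null replicate 3 the rise in PDK1 null CTL no longer passed, with an adjusted p of 0.0548 and leave-one-out values of 1.03 to 1.31.

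Tnf gave log2 signals of 7.93, 7.52 and 7.92 in Cre control CTL, 7.93, 7.86 and 7.63 in PDK1 null CTL, 8.78, 8.58 and 8.50 in IL-2 alone and 8.49, 8.41 and 8.50 with AktI. Its groups overlapped in both experiments. The log2 fold changes were 0.02 ± 0.127 and -0.15 ± 0.0851, with limma adjusted p of 0.967 and 0.422. Lta overlapped in the PDK1 experiment, with 9.03, 8.64 and 9.52 in Cre control and 9.43, 9.39 and 9.10 in PDK1 null CTL (log2 fold change 0.24, adjusted p = 0.636). Its signals did not overlap in the Akt experiment, with 11.21, 10.82 and 11.07 in IL-2 alone and 10.67, 10.55 and 10.70 with AktI. That change of -0.39 ± 0.102 was under 1.5-fold and had a limma adjusted p of 0.0695, or 0.0466 with the mouse as a block.

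Ltb was the only gene of its surroundings that passed. The cluster lies 11.1 Mb and 312 to 314 measured genes away from Pdpk1 on the same chromosome. Among the 5 measured genes on each side of Tnf, no gene but Ltb passed in either comparison. Over all genes 1.36% passed in PDK1 null CTL and 2.53% with AktI, so a window of this size would seldom hold another. Changes at the other genes of this window, Tnf and Lta included, lay between -0.39 and 0.24 on the log2 scale, beside 1.19 and 1.12 at Ltb.

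**Figure D2:**
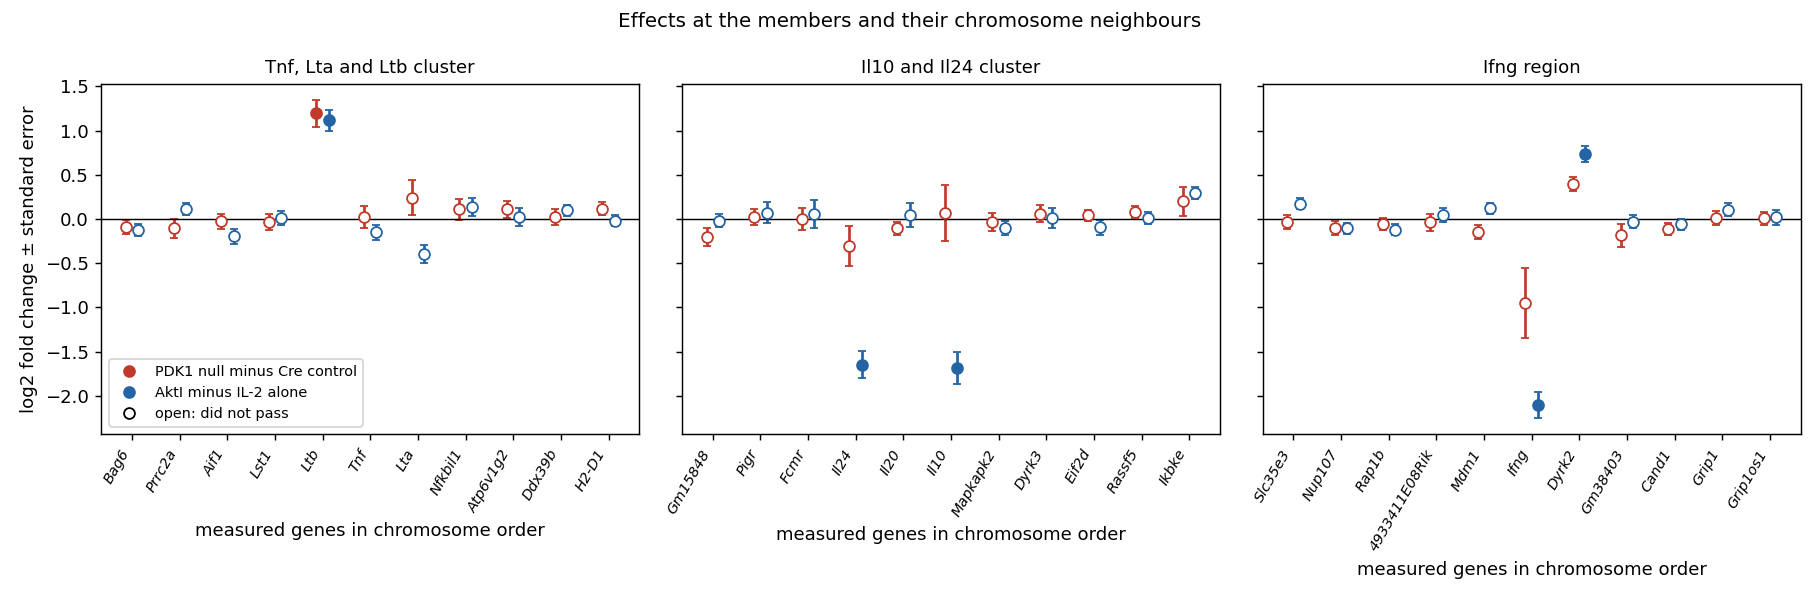
Log2 fold change ± standard error (y axis) of 5 measured genes on each side of Tnf, Il10 and Ifng, in chromosome order (x axis), in PDK1 null CTL (red) and with AktI (blue), n = 3 arrays per group; filled points passed. Ltb is the only filled gene in its panel, and Il24 and Il10 are filled below 0 with AktI. Il20 between them is at 0.04 with AktI from a signal below background, and Dyrk2, next to Ifng, is filled above 0 with AktI.

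Fasl, the gene of the ligand that CTL use to trigger the death receptor FAS, behaved differently in the 2 experiments. Its signals in the PDK1 experiment were close to each other, 10.21, 10.10 and 10.15 in Cre control and 10.17, 10.18 and 10.15 in PDK1 null CTL. With AktI they dropped from 11.81, 11.73 and 11.54 to 10.94, 10.95 and 10.81, with no overlap and a fall in each mouse. The log2 fold change was 0.01 ± 0.0657 in PDK1 null CTL (limma adjusted p = 0.961) and -0.79 ± 0.0859 with AktI, a 1.73-fold fall (adjusted p = 0.00149). The difference of the effects was 0.80 ± 0.107 and passed (adjusted p = 0.00365). Of the 10 genes Fasl was the 1 whose difference passed, where 0.522% of all genes passed, 0.319% upward and 0.203% downward. At an unadjusted limma p under 0.05, 5 of the 10 differed, and the share of all genes at that p was not counted. A further Fasl probe set gave -0.02 and -0.77, and its difference of 0.75 also passed (adjusted p = 0.00114).

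Tnfsf10 passed in neither experiment. Its signals were 6.05, 6.26 and 5.89 in Cre control, 6.44, 6.09 and 5.88 in PDK1 null CTL, 7.08, 7.29 and 7.03 in IL-2 alone and 7.15, 7.13 and 6.81 with AktI, with overlap in both experiments. The log2 fold changes were 0.07 and -0.10 (limma adjusted p = 0.882 and 0.722). The other 2 probe sets of Tnfsf10 gave -0.33 (adjusted p = 0.0987, no overlap) and -0.19 (adjusted p = 0.40) with AktI.

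**Figure D3:**
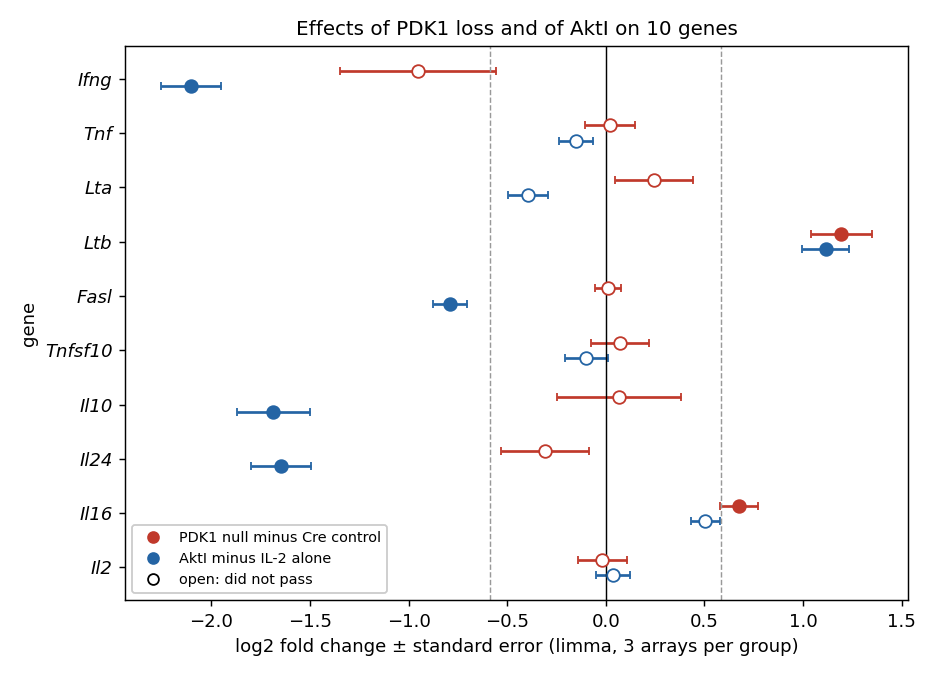
Log2 fold change ± standard error (x axis) of the 10 genes (y axis) in PDK1 null minus Cre control CTL (red) and AktI minus IL-2 alone (blue), where dashed lines mark 1.5-fold, n = 3 arrays in every group and a filled point passed. Ltb moves by 1.19 and 1.12 in the same direction, and Fasl, Il10 and Il24 sit near 0 or within 0.31 of it in PDK1 null CTL and between -0.79 and -1.69 with AktI.

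Il10 and Il24 lie in 1 cytokine cluster on chromosome 1 and both fell with AktI. Il10, the gene of a cytokine that restrains inflammation, gave 7.62, 7.24 and 7.58 in IL-2 alone and 5.40, 5.80 and 6.18 with AktI. That was a 3.22-fold fall (log2 fold change -1.69 ± 0.184, limma adjusted p = 0.00155), seen in each mouse, and the AktI cultures remained above the background level of 4.99. In the PDK1 experiment Il10 spread widely, with 7.23, 7.96 and 7.14 in Cre control and 8.07, 7.62 and 6.83 in PDK1 null CTL, and did not pass (0.07 ± 0.314, adjusted p = 0.957). The difference of the effects, 1.75 ± 0.409, had an adjusted p of 0.104. It passed without PDK1 null replicate 3, at 2.09 with an adjusted p of 0.0264.

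Il24 gave 7.79, 7.47 and 8.11 in IL-2 alone and 6.03, 6.08 and 6.32 with AktI. The groups were well separated, and the fall was 3.13-fold (log2 fold change -1.65 ± 0.152, limma adjusted p = 0.000678). In the PDK1 experiment the groups overlapped, with 7.93, 7.68 and 7.98 in Cre control and 7.49, 8.10 and 7.07 in PDK1 null CTL (-0.31 ± 0.224, adjusted p = 0.588). The difference of the effects was 1.34 ± 0.302 with an adjusted p of 0.0904, and passed without PDK1 null replicate 3 (1.58, adjusted p = 0.0265). Il20, the cytokine gene between Il24 and Il10, was below background in the Akt experiment and gave log2 fold changes of 0.04 with AktI and -0.11 in PDK1 null CTL.

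Il10 and Il24 can also be made by cells other than CTL, and 2 markers of such cells fell with AktI. Of 8 myeloid markers 1 fell with AktI, Cd68 (log2 fold change -1.30, limma adjusted p = 0.00563), Fcgr3 (0.38), Csf1r (-0.05) and Itgax (-0.16) did not pass, and Lyz2, Itgam, Cd14 and Adgre1 were below background in both groups. The linear signal summed over all 8 was 410 to 503 in IL-2 alone and 342 to 344 with AktI, and without Cd68 it was 271 to 289 and 269 to 287. Of 5 mast cell and basophil markers Mcpt8 fell to below background (-1.09, limma adjusted p = 0.0465), and Cpa3, Ms4a2, Fcer1a and Cd200r3 were below background. The signal summed over all 5 was 101 to 146 in IL-2 alone and 76.1 to 91.2 with AktI, and without Mcpt8 it was 49.2 to 60.1 and 49.5 to 54.1. The Mcpt8 fall did not pass without any 1 of the 3 IL-2 arrays or of AktI replicates 1 and 2. In PDK1 null CTL the summed myeloid signal was 444 to 482, beside 355 to 377 in Cre control, and 1 of the 8 markers rose, Fcgr3 (0.91, adjusted p = 0.0486), a call lost without replicate 1 or 3 of either group. The part of these cells in the cytokine signals was not tested.

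Il16 rose with a small, even step. Its log2 signals were 9.03, 9.0 and 9.16 in Cre control and 9.82, 9.55 and 9.85 in PDK1 null CTL, and 10.35, 10.31 and 10.17 in IL-2 alone and 10.83, 10.79 and 10.72 with AktI. The groups did not overlap in either experiment. The rise was 1.60-fold in PDK1 null CTL (log2 fold change 0.68 ± 0.0957, limma adjusted p = 0.0158). With AktI it was 1.42-fold (0.50 ± 0.0740, adjusted p = 0.00634), which stayed under the 1.5-fold minimum. A second well-detected Il16 probe set gave 0.58 (adjusted p = 0.0200, just under 1.5-fold) and 0.60 (adjusted p = 0.00266, passed). The difference of the effects was 0.17 (adjusted p = 0.700). Of the other 2 Il16 probe sets, 1 was above background in all 4 groups and did not follow, with -0.11 and -0.01, and 1 was below background in all 4 groups. The PDK1 call was lost without Cre control replicate 1 or 2 or without PDK1 null replicate 1 or 3, where adjusted p reached 0.0733, with values of 0.62 to 0.77.

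Il2, the gene of the growth factor that was itself added to all cultures, was below background in all 4 groups. Its signals were 2.97, 3.00 and 2.58 in Cre control, 2.85, 2.96 and 2.69 in PDK1 null CTL, 4.09, 3.85 and 3.85 in IL-2 alone and 3.99, 4.02 and 3.88 with AktI. The log2 fold changes of -0.02 and 0.04 are of signals below background. One further probe set names both Ntan1 and Il2 and was not used.

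Across the 12 arrays, after subtraction of the mean of each experiment, Ltb and Il16 ran together with a Pearson r of 0.974, Ifng and Il24 with 0.918, and Ifng ran against Ltb with -0.861. These describe arrays that share treatment groups and carry no test. By the same measure over 11448 other genes above background, the pattern of Ifng was most like those of Cyba, Ppp1r16b and Sgcb (r = 0.979, 0.975 and 0.972), although Cyba changed by -0.25 on the log2 scale with AktI, beside -2.10 for Ifng. Ltb was most like Gramd3 (r = 0.993), Acss1 and Zc3h12d, and the last of these had log2 fold changes of 1.32 in PDK1 null CTL and 1.30 with AktI. Fasl was most like Tuba8 (r = 0.966), the chemokine gene Ccl4 (0.949) and Mxd1 (0.947), with AktI changes of -1.43, -0.85 and -0.79. Il10 was most like Rinl (r = 0.921), D8Ertd738e and Rai14, Il24 most like H2-Q10 (0.961), Isg20 and Zhx3, and Il16 most like Gab3 (0.985), Sri and Ms4a6c. Of 71 other genes within 5 measured genes of a member, 1 passed in PDK1 null CTL and 2 passed with AktI, beside 1.36% and 2.53% of all genes. These were Tnfsf4, next to Fasl, Dyrk2, next to Ifng (0.73 with AktI, adjusted p = 0.00285), and Tnik, near Tnfsf10 (-0.60 with AktI, adjusted p = 0.00225).

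No receptor of these ligands passed the test. Of 15 measured of 16 listed, none did so in either comparison, with 4 rises and 3 falls in PDK1 null CTL and 2 and 2 with AktI at an unadjusted limma p under 0.05. The median log2 fold changes were -0.03 and -0.05. The largest values were those of Il10ra, a chain of the IL-10 receptor (0.54 in PDK1 null CTL, adjusted p = 0.0240, and -0.18 with AktI), and Ifngr1, the ligand-binding chain of the IFN-γ receptor (0.52, adjusted p = 0.0362, and 0.27), both under 1.5-fold. The difference of the effects on Il10ra, 0.72, did not pass (adjusted p = 0.118) and passed with replicate blocks (adjusted p = 0.0196). Il2ra and Il2rb, chains of the IL-2 receptor, gave -0.43 and -0.37 in PDK1 null CTL (adjusted p = 0.0774 and 0.0806). Tnfrsf1a, Tnfrsf1b, Ltbr, Fas and Tnfrsf10b, the receptors of the TNF family ligands, gave values between -0.29 and 0.32 in both comparisons. Il10rb gave 0.38 (adjusted p = 0.113) and 0.08, Ifngr2 0.09 and 0.0035, Il20rb 0.17 and 0.12, and Cd4, to which IL-16 binds, -0.13 and -0.06. Il20ra and Il22ra1 were below background in all 4 groups. Il2rg was not analysed here.

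Among 9 measured of 13 other TNF family ligands, Tnfsf4, the gene of OX40 ligand, rose in PDK1 null CTL, beside 1.01% of all genes. Its log2 signals were 7.98, 7.69 and 7.77 in Cre control, 8.50, 8.32 and 8.67 in PDK1 null CTL, 8.48, 8.84 and 8.64 in IL-2 alone and 8.24, 8.31 and 8.34 with AktI, so the groups did not overlap in either experiment, PDK1 null arrays being the higher and AktI arrays the lower. The log2 fold changes were 0.69 ± 0.110 (limma adjusted p = 0.0228) and -0.35 ± 0.0944 (adjusted p = 0.0759), and their difference of 1.04 ± 0.153 passed (adjusted p = 0.00798). Tnfsf14, the gene of LIGHT, changed by -0.50 with AktI (adjusted p = 0.0314), under 1.5-fold, and in PDK1 null CTL Tnfsf8 gave 0.26 and Tnfsf14 -0.14 (adjusted p = 0.508 and 0.427). No other ligand of the list passed, and the list medians were 0.07 and -0.02. Of 17 measured of 21 other T cell cytokine genes none passed in either comparison, with 1 rise and 2 falls in PDK1 null CTL and 1 and 4 with AktI at an unadjusted p under 0.05. The largest values in PDK1 null CTL were 0.53 for Il4 (adjusted p = 0.246) and 0.50 for Ebi3 (adjusted p = 0.377). The largest with AktI were -0.54 for Lif (adjusted p = 0.129) and 0.39 for Il4 (adjusted p = 0.0441), which was below background there. The list medians were -0.01 and -0.11.

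Genes known to regulate Ifng moved in both directions. Of 22 measured of 23, 2 rose and 1 fell in PDK1 null CTL, beside 1.01% and 0.357% of all genes. With AktI 3 rose and 2 fell, beside 1.51% and 1.03%. At an unadjusted limma p under 0.05 there were 3 rises and 4 falls in PDK1 null CTL and 5 and 10 with AktI. The shares above are of genes that passed and do not apply to these unadjusted counts. Stat4, which carries the IL-12 signal, rose in both (0.73 and 0.87 on the log2 scale, limma adjusted p = 0.0213 and 0.00197), as did Il18r1, a receptor chain for IL-18 (1.00 and 0.74, adjusted p = 0.0356 and 0.00394). Both receptor chains for IL-12 gave negative values in both comparisons. Il12rb2 fell in PDK1 null CTL (-0.76, adjusted p = 0.00468) and gave -0.30 with AktI (adjusted p = 0.302), and the difference of these effects did not pass (adjusted p = 0.338). Il12rb1 fell with AktI (-1.10, adjusted p = 0.000238) and gave -0.42 in PDK1 null CTL (adjusted p = 0.0365, no overlap, under 1.5-fold), with a difference of 0.68 (adjusted p = 0.0187). With AktI Foxo3 rose (0.67, adjusted p = 0.0212, but 0.44 and under 1.5-fold as the mean of its probe sets) and Prdm1, the gene of the repressor Blimp-1, fell (-0.70, adjusted p = 0.00104), beside -0.64 for Prdm1 in PDK1 null CTL (adjusted p = 0.160). Bhlhe40 (-0.58, adjusted p = 0.00517) and Zfpm1 (-0.52, adjusted p = 0.00293) stayed under 1.5-fold with AktI. The list medians were -0.05 and -0.23.

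Of 21 measured of 22 genes that IFN-γ induces, 1 rose and 1 fell in PDK1 null CTL, beside 1.01% and 0.357% of all genes. With AktI none rose and 2 fell, beside 1.51% and 1.03%. At an unadjusted limma p under 0.05, 3 rose and 9 fell with AktI, counts to which these shares do not apply. Irf8, a transcription factor of this response, fell in both (-0.91 and -1.29, adjusted p = 0.0189 and 0.000222). Gbp3, the gene of a guanylate-binding protein, rose in PDK1 null CTL (0.77, adjusted p = 0.0175). Iigp1, the gene of an immunity-related GTPase, fell with AktI (-0.70, adjusted p = 0.00537), a call lost with 1 model over all 12 arrays (adjusted p = 0.145). Gbp2 gave 0.61 with AktI, which did not pass (adjusted p = 0.165, groups overlapping) and passed as a rise with the mouse as a block (adjusted p = 0.0225). H2-Ab1 gave -0.51 with AktI (adjusted p = 0.0239), under 1.5-fold, and in PDK1 null CTL Gbp2 gave 0.44 and Gbp6 -0.35 (adjusted p = 0.238 and 0.41). The list medians were 0.05 and -0.06. Of 13 measured of 14 NF-κB feedback and TNF response genes, none passed in PDK1 null CTL. With AktI 1 rose, beside 1.51% of all genes: Nfkbia, which encodes an inhibitor of NF-κB (0.68, adjusted p = 0.00657). At an unadjusted limma p under 0.05 there were 6 rises and no fall in PDK1 null CTL and 5 rises and 1 fall with AktI. Tnfaip3 gave 0.54 in PDK1 null CTL (adjusted p = 0.0180, no overlap, under 1.5-fold), Nfkbie gave 0.37 and 0.39 in the comparisons, and Relb 0.40 with AktI. The list medians were 0.16 and 0.07. Nfkb1 was not analysed here.

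Several of these calls lay close to the threshold and were lost when 1 of several arrays was left out, while the changes kept their direction. In PDK1 null CTL those of Stat4 (0.62 to 0.87) and Il18r1 (0.80 to 1.12) were lost without any 1 of the 3 Cre control arrays or of PDK1 null replicates 1 and 3, and those of Tnfsf4 (0.60 to 0.77) and Irf8 (-1.02 to -0.78) without Cre control replicate 2 or 3 or PDK1 null replicate 1 or 3. Gbp3 (0.66 to 0.84) was lost without Cre control replicate 3 or PDK1 null replicate 3. With AktI, Foxo3 (0.56 to 0.79) was lost without IL-2 replicate 1 or 3 or AktI replicate 2 or 3, and Nfkbia (0.58 to 0.75) without IL-2 replicate 3. The difference on Il12rb1 (0.61 to 0.73) was lost without Cre control replicate 1, IL-2 replicate 1 or AktI replicate 2.

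**Figure D4:**
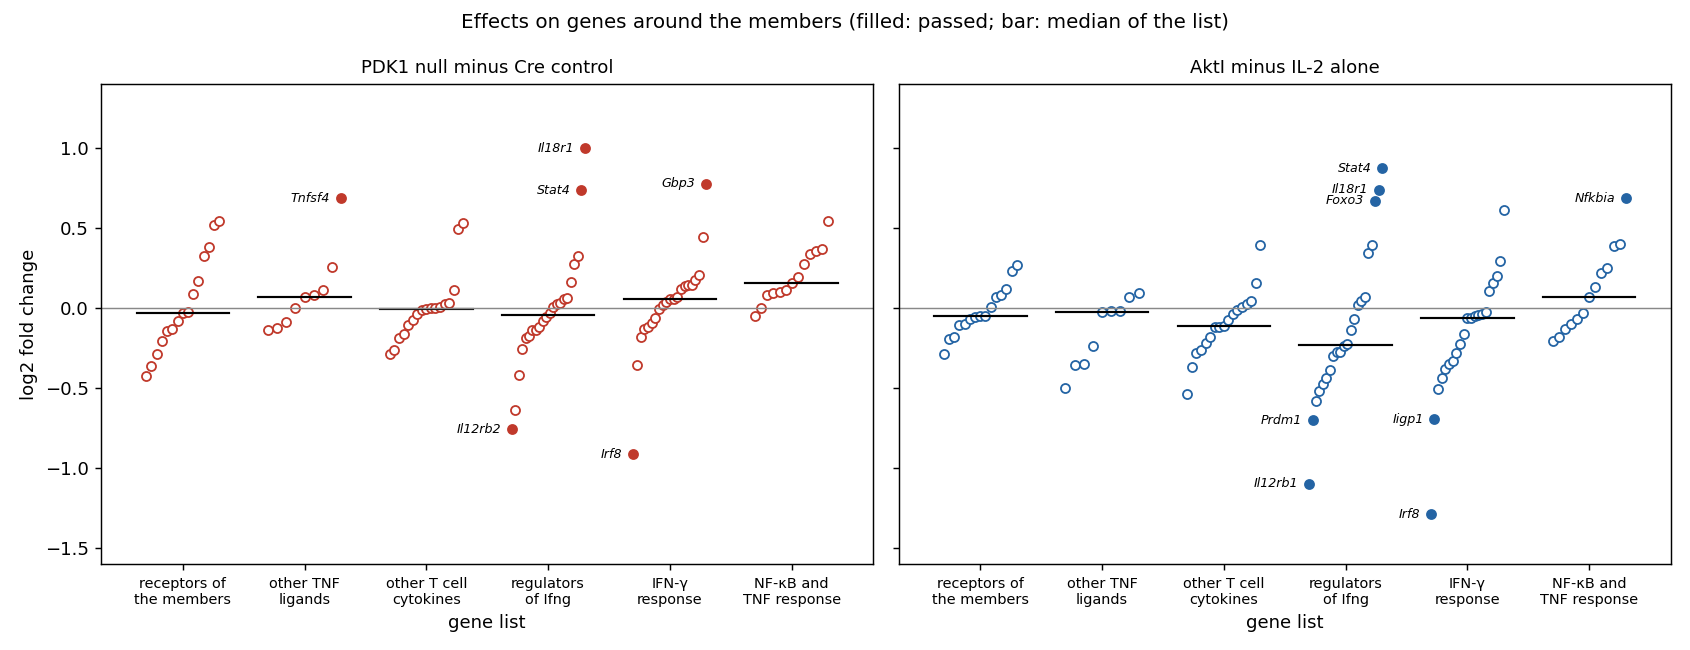
Log2 fold change (y axis) of each gene of 6 lists around the 10 genes (x axis), in PDK1 null minus Cre control CTL (left) and AktI minus IL-2 alone (right); filled and named points passed and bars give the median of each list. No receptor and no other T cell cytokine is filled in either panel, and the regulators of Ifng hold filled points above and below 0.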

How the data were processed

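RNA of 12 CTL cultures was hybridized to Affymetrix mouse arrays. The authors deposited log2 signals that Affymetrix Expression Console 1.1 had made by the robust multichip average, and these were used unchanged. Of 45101 probe sets, 64 were controls and 45037 were tested. Each comparison was fitted on its own 6 arrays with lmFit and eBayes (limma 3.58.1, R 4.3.3) and no covariate, with Benjamini-Hochberg adjustment. The difference of the effects was a contrast over all 12 arrays. The fits were checked on simulated data. The number of arrays, 3 in a group, limits the precision, and a permutation could not go below p = 0.1. Gene names and positions came from GEO's platform annotation and RefSeq.

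The 10 genes and the lists were chosen with earlier results of these data known. All 10 genes were named, all receptors, genes of other lists that passed or had, per comparison, the 2 largest changes among the others, neighbors that passed or encode a cytokine, and the 3 genes most like each gene that passed. For AktI the labels give replicate numbers, and the paper states that each culture was divided. The same number was taken as the same mouse, so the mouse was a block as an alternative. Same-number deviations correlated with r of 0.0343 to 0.17 for AktI, and -0.011 to 0.0496 for PDK1, where replicates share only a number. Different numbers gave -0.102 to 0.0383 for AktI, so these values did not by themselves show the pairing of replicate 2. Other alternatives were trend and robust settings, quantile normalization, equal medians, dim probe sets left out, other fold minimums, the mean of all probe sets, 1 model over all arrays and leaving out each array. The study's significance analysis of microarrays was not run.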

Additional observations from a re-analysis of the deposited data

Results flagged for a closer look

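The effects of PDK1 loss and of AktI differed, by the contrast over all 12 arrays, for 1 of the 10 genes and for 4 genes of the lists and markers beside them. Each value is the log2 effect in PDK1 null CTL minus that of AktI, with limma's adjusted p. For Fasl it was 0.80 (adjusted p = 0.00365), and for Tnfsf4, the neighboring gene on chromosome 1, 1.04 (adjusted p = 0.00798). It was 0.68 for Il12rb1 (adjusted p = 0.0187), a receptor chain for IL-12. For the myeloid marker Cd68 it was 1.61 (adjusted p = 0.0133), where log2 signals were 7.77, 7.12 and 7.04 in IL-2 alone and 6.01, 5.82 and 6.21 with AktI. For Prf1, the gene of perforin, it was 1.53 (adjusted p = 0.0260), with effects of -0.67 in PDK1 null CTL (adjusted p = 0.14) and -2.20 with AktI (adjusted p = 0.000164). The Prf1 difference was lost with the trend and robust settings (adjusted p = 0.0850) and in 8 of the fits that left out 1 array. The arrays of the 2 experiments cannot be told apart from the treatments in these contrasts.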

How the results depend on the processing

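For the 10 genes and their 3 contrasts, 484 of 497 alternative values kept their side of the threshold, 9 fell below it, 4 rose above it, and no called value changed sign. In the main fit 2 of the 10 genes passed in PDK1 null CTL, 5 with AktI and 1 in the difference. Most of the 497 values therefore had no call to lose. Over these genes and the list genes, 32 values that passed under neither setting changed sign. The replicate block, which for AktI pairs cultures of the same mouse, changed no call of the 10 genes, with Ifng at an adjusted p of 0.000398 and Ltb at 0.00366 with AktI. With the block Fcgr3 in PDK1 null CTL was lost (0.91, adjusted p = 0.113) and Prf1 gained (-0.67, adjusted p = 0.0431), in an experiment whose replicates share only a number. Gbp2 with AktI (0.61, adjusted p = 0.0225) and the Il10ra difference (0.72, adjusted p = 0.0196) were gained.

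With the mean of all probe sets Il16 in PDK1 null CTL was 0.30 and under 1.5-fold, which left 1 rise. With at least 2-fold asked, Il16 in PDK1 null CTL (0.68), Fasl with AktI (-0.79) and the Fasl difference (0.80) no longer passed. That left 1 rise in PDK1 null CTL and 0 differences among the 10 genes by limma. At an unadjusted limma p under 0.05 and no fold minimum, 5 of the 10 differed. With no fold minimum Il16 passed with AktI (0.50), making 2 rises. Over all genes, no fold minimum gave 297 rises and 135 falls in PDK1 null CTL and 665 and 534 with AktI, and 2-fold gave 58 and 18, and 93 and 58, with 22 and 16 differences. Trend and robust settings gave 56 lower differences. With 1 model over all 12 arrays the AktI calls of Iigp1 (limma adjusted p = 0.145) and Mcpt8 (0.0654) were lost. The fall of Prdm1 in PDK1 null CTL (-0.64, adjusted p = 0.0384) was gained.

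Without 1 array at a time, Ifng in PDK1 null CTL ran from -1.47 to -0.66, Il16 from 0.62 to 0.77 and Ltb from 1.03 to 1.31, the Il10 difference from 1.47 to 2.09 and that of Il24 from 1.06 to 1.58. Among the 10 genes, rises in PDK1 null CTL numbered 0 to 2, falls 0 to 1 and differences 1 to 3, and over all genes rises numbered 73 to 243, falls 25 to 85 and higher differences 25 to 69. The 5 calls with AktI held in each of these fits. The causes were not tested. Il2 had no value once dim probe sets were left out.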
